A study of Mus musculus with 12 samples.

Results

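The transcripts described here are those of the T cell receptor complex, of the CD8 coreceptor and of the molecules next to them. They are 10 genes given by symbol (Cd3d, Cd3e, Cd3g, Cd247, Cd8a, Cd8b1, Lck, Zap70, Lat and Cd2) out of 24421 symbols in each count table. Trac, Trbc1 and Trbc2, the constant regions of the chains that bind antigen, were not among these symbols and so were not measured. All 10 passed the filter on low counts, which left 11727 genes to test. RNA sequencing was done on CD8+ T cells from the spleen of C57BL/6 mice, an inbred laboratory strain. The DMSO group received only the solvent (6 libraries), and the EZH2i group received an inhibitor of EZH2, the enzyme that methylates lysine 27 of histone H3 (6 libraries). The series title places the work in the question of how EZH2 affects lymphocytes inside tumors under metabolic stress. The sources used here do not give the inhibitor's name, its dose, the time of treatment, the age and sex of the mice, or whether the cells were cultured. Nothing in the labels ties the 6 libraries of a group to separate animals, so p-values describe library-to-library spread, which may be technical.

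As background, the receptor that recognises antigen has short tails of its own and signals through the CD3 chains and the zeta chain, whose tyrosines are phosphorylated by the kinase Lck. The CD8 coreceptor binds the class I molecule that presents the antigen and brings Lck to the receptor. Phosphorylated CD3 and zeta tails recruit the kinase Zap70, which phosphorylates the scaffold Lat. Cd2 is an adhesion receptor of T cells that strengthens contact with the presenting cell.

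Promoters of 5 of the genes are shown first. Lck and Zap70 are the kinases whose ratio is tested below, and Cd8a is the coreceptor chain called lower in the main fit. Cd3d and Cd3g are neighbours on chromosome 9 that are read in opposite directions from starts 1355 bases apart; their difference from each other was not tested. The sequences are the 250 bases before the start, 5′ to 3′ on the strand of the gene, from RefSeq in build GRCm38.p6, and capitals mark matches to the ETS core GGAAG or the RUNX core TGTGGT on either strand, so that CTTCC is GGAAG read on the opposite strand. The windows lie at chr9:44981536-44981785 (plus strand) for Cd3d, chr9:44980432-44980681 (minus strand) for Cd3g, chr6:71373177-71373426 (plus strand) for Cd8a, chr4:129573642-129573891 (minus strand) for the upstream start of Lck and chr1:36761548-36761797 (plus strand) for the upstream start of Zap70.
Cd3d: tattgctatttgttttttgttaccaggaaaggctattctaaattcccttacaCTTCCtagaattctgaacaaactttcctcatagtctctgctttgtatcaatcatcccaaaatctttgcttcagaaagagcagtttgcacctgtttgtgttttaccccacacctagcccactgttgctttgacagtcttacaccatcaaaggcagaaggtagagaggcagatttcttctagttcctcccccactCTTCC
Cd3g: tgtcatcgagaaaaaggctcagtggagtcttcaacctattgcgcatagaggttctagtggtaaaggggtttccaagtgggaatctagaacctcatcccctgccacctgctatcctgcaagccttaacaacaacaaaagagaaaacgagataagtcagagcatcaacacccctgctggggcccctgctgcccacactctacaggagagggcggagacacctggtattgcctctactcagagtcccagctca
Cd8a: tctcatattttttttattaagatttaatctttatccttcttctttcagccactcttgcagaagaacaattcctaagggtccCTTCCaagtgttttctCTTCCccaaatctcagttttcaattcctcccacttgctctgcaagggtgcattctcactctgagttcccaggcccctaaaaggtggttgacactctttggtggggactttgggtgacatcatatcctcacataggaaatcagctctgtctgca
Lck: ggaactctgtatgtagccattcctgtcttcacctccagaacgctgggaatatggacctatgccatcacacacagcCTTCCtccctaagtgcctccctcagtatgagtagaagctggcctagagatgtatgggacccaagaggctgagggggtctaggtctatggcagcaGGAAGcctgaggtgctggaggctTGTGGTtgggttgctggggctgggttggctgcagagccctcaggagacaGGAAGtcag
Zap70: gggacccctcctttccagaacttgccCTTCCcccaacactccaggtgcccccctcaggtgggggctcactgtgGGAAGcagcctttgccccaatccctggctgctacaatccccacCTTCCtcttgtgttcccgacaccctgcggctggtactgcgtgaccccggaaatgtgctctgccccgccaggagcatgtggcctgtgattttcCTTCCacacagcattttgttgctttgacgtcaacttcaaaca

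The table held an entry for 8 of the 10 genes, with 11 start sites in all, and none for Cd2 and Cd8b1. An ETS core was found before at least 1 start of 7 of the 8 genes, and 64.1% of all 32851 windows of this length held one. Cd3g was the gene without it. A RUNX core was found before the upstream start of Lck and before another start of Zap70, at 36764515 (14.0% of all windows). The window of that Zap70 start is not shown, and the bases after it were not found in a GENCODE transcript of the gene. Further motifs were searched on both strands. The site of TCF-1, a factor of T cell development, was searched as CTTTGA and found for 2 of the 8 genes (13.8% of all windows). The E-box bound by E proteins, with the letters CAGNTG, was found for 6 of the 8 (44.8% of all windows). The cyclic AMP response element, by its core TGACG, was found for 2 of the 8 (17.8% of all windows). The TATA box, as TATAAA, was found for 0 of the 8 (12.4% of all windows). A gene with several starts had more windows to match, while the shares are per window. Per window, the ETS core was in 9 of 11 and the E-box in 7 of 11. RUNX, TCF-1 and the cyclic AMP element were each in 2 of 11, and TATA in 0. Matches of different motifs shared bases only before Zap70, where CTTTGA runs into TGACG. The windows were poor in CpG, the dinucleotide that clusters at many promoters, with a median of 3 CpG in the 11 windows against 6 in all windows, and Cd3d and Cd8a had 0. A match is a stretch of letters and says nothing on which factor binds.

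Library totals ran from 17215483 to 28092434 counts in DMSO and from 19610258 to 31206228 in EZH2i, and the lowest count of any of the 10 genes was 2895, for Zap70 in DMSO library 6. The libraries numbered 6 stood apart in both groups. On the first principal component of all tested genes DMSO library 6 lay at -64.1 and the other DMSO libraries between -20.1 and -9.58, and EZH2i library 6 lay at -23.3 and the other EZH2i libraries between 28.3 and 35.7. Levels are given as CPM, the count scaled to a common sequencing depth, with library sizes adjusted by TMM. Cd4, the coreceptor of helper T cells, averaged 0.0887 ± 0.0994 CPM in the DMSO libraries and 0.0983 ± 0.130 CPM in those with EZH2i (mean ± SD, n = 6). Other helper T cell markers were not all so low. Cd40lg averaged 0.144 and 0.0909 CPM, but Zbtb7b 14.6 and 22.2 CPM and Foxp3 6.02 and 7.82 CPM (adjusted p = 0.267 for Foxp3). The helper list summed to 17.4 to 23.0 CPM in DMSO and 23.8 to 34.8 CPM in EZH2i. Of 46 measured markers of other cells in 8 lists (helper and gamma delta T cells, NK cells, B cells, myeloid cells, dendritic cells, neutrophils, erythrocytes and platelets), 14 were abundant enough to test, 5 of these were called higher and 0 lower, beside 13.3% and 6.05% of all tested genes. Those 5 were Zbtb7b, Klrb1c, Prf1, Itgam and Itgax, of which Prf1, Itgam and Itgax are also made by effector CD8+ T cells. Together the 46 markers summed to 59.3 to 72.5 CPM in DMSO and 81.4 to 95.2 CPM in EZH2i. Of them 7 had no count in any library, among them Klra8 and Klra4 of NK cells and the 4 globin genes. How multiply mapped reads were treated is not stated, so these need not be absent. Trdc, Tcrg-C1, Tcrg-C2 and Tcrg-C4 of gamma delta T cells and Ly6g of neutrophils were not among the counted symbols. Only Sox13 and Zbtb16 were measured for gamma delta T cells. In the NK cell list Klrb1c rose from 0.852 to 5.10 CPM, while Fcer1g went from 2.12 to 1.69 CPM (adjusted p = 0.402). That list summed to 7.58 to 9.47 CPM in DMSO and 12.4 to 20.7 CPM in EZH2i. In the B cell list Ms4a1 averaged under 0.1 CPM in both groups, while Cd79b went from 21.8 to 18.3 CPM (adjusted p = 0.0845) and Cd22 from 0.776 to 1.398 CPM (adjusted p = 0.05001). In the myeloid list Csf1r averaged under 0.1 CPM in both groups, while Itgam rose from 4.75 to 11.6 CPM and Mpeg1 went from 1.41 to 2.62 CPM (adjusted p = 0.0597). Markers of CD8+ T cells outside the 10 genes were mixed in direction. Mean Eomes (70.5 to 140 CPM, adjusted p = 0.0339) and Ccl5 (17.2 to 29.6 CPM, adjusted p = 0.00850) were called higher. Thy1 (1567 to 1175 CPM, adjusted p = 0.0535), Cd5 (207 to 164 CPM) and Tbx21 (52.8 to 50.7 CPM) were not called in the main fit. Neither were Runx3 (175 to 196 CPM), Nkg7 (430 to 438 CPM) and Gzmb (1297 to 1592 CPM). The part of all these markers in the results below was not tested.

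With EZH2i, 5 of the 10 transcripts were called lower and 0 higher. Those called lower were Cd8a, Cd3g, Lck, Lat and Cd2, with Cd2 reaching 0.659 of its DMSO level. Of all tested genes 6.05% were called lower and 13.3% higher. Among the 972 tested genes at least as abundant as Zap70, the lowest of the 10 by mean CPM, 14.4% were called lower and 2.57% higher. The median log2 fold change was -0.28 over the 10 genes, -0.01 over all tested genes and -0.12 over those 972. Below 0 were 9 of the 10, beside 52.0% of all tested genes and 74.5% of those 972. Calls are at an adjusted p under 0.05 (quasi-likelihood test of edgeR, adjusted by Benjamini-Hochberg over all tested genes), fold changes are EZH2i against DMSO, and levels are lowest, median and highest of the 6 libraries of a group. Without both libraries numbered 6 the test called 6 of the 10 lower (20.9% of all tested genes), Cd8b1 being added, and with the replicate number as a block 7 (24.3% of all tested genes, and 46.3% of the 972), with Cd8b1 and Cd247 added. Of the 10, 0 were called higher in either fit, beside 23.9% of all tested genes without number 6 and 24.7% with the block (8.02% of the 972). Upper-quartile scaling called 4 lower and 0 higher (2.96% and 15.3% of all tested genes), and DESeq2 called 5 lower and 0 higher (8.01% and 15.3%). In bulk RNA, fewer cells with a transcript and less transcript per cell cannot be told apart.

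**Figure D1:**
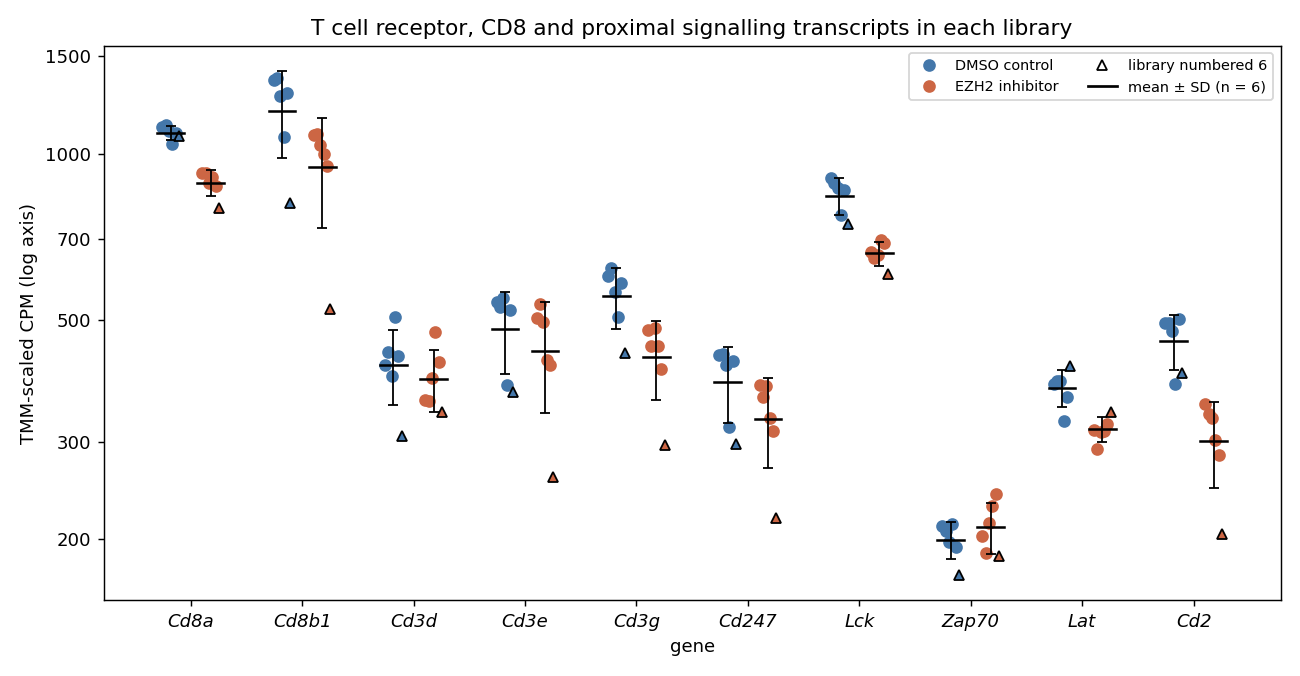
TMM-scaled CPM (log axis) of the 10 genes in each DMSO and EZH2i library, with the group mean and SD (n = 6 each); triangles are the libraries numbered 6. The groups do not overlap for Cd8a, Lck and Cd2. The number 6 libraries are the lowest for Cd8b1, Cd3d, Cd3e, Cd3g, Cd247, Lck and Zap70 in both groups.

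Cd8a encodes the alpha chain of CD8, which carries the binding site for Lck. It stood at 1041, 1094 and 1128 CPM in DMSO and at 798, 895 and 924 CPM in EZH2i. Every EZH2i library was below every DMSO library, a separation in this direction that 3 of the 10 genes and 2.74% of all tested genes showed. The opposite separation was seen in 0 of the 10 and in 7.50% of all tested genes. The log2 fold change was -0.30 (95% interval -0.42 to -0.19, adjusted p = 0.00129), which is a level of 0.811 of that in DMSO. The spread among the DMSO libraries was small, with an SD of 31.1 CPM on a mean of 1091 CPM. Cd8a lies on chromosome 6 from 71373427 to 71379173 in GRCm38.

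Cd8b1 encodes the beta chain, which pairs with the alpha chain on conventional CD8+ T cells. It stood at 813, 1278 and 1368 CPM in DMSO and at 522, 1019 and 1084 CPM in EZH2i. The groups overlapped, and the EZH2i library was the lower one in 6 of 6 pairs with the same number. The lowest value of each group was in number 6. The log2 fold change of -0.34 was about as large as that of Cd8a, but its interval of -0.71 to 0.035 included 0 and the adjusted p was 0.198. It passed with the replicate number as a block (-0.36, adjusted p = 0.000208) and without both libraries numbered 6 (-0.30, adjusted p = 0.00149). Cd8b1 lies 35932 bases from Cd8a on the same strand, from 71322788 to 71337494.

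The balance of the 2 CD8 chains was read from the ratio of their counts within a library, which does not depend on how libraries are scaled. The ratio of Cd8b1 to Cd8a was 1.09 ± 0.178 in DMSO and 1.06 ± 0.203 in EZH2i (mean ± SD, n = 6 each), a difference of -0.05 on the log2 scale (exact permutation test, two-sided, p = 0.652, adjusted p = 0.721 over 9 ratios). Same-numbered libraries differed by -0.21 to 0.097 on that scale. Number 6 was low in both groups, at 0.756 against 1.03 to 1.22 in the other DMSO libraries and at 0.654 against 1.09 to 1.17 in the other EZH2i libraries. The difference had the opposite sign without EZH2i library 6, at 0.081.

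Of the 3 CD3 chains, Cd3g was called lower and Cd3d and Cd3e were not. Cd3g encodes the gamma chain, which pairs with the epsilon chain in the receptor complex. It stood at 436, 572 and 621 CPM in DMSO and at 296, 448 and 484 CPM in EZH2i, with groups that overlapped only through number 6 of DMSO. It fell by 0.37 on the log2 scale (interval -0.63 to -0.11, adjusted p = 0.0488) and was lower in 6 of 6 same-numbered libraries. The call was close to the threshold: it was lost when any of 8 of the 12 libraries was left out, with adjusted p up to 0.0972, and with upper-quartile scaling (adjusted p = 0.115). Blocking on the replicate number gave an adjusted p of 7.89e-05, and leaving out both libraries numbered 6 gave 0.000356.

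Cd3d encodes the delta chain, the other partner of the epsilon chain. It stood at 308, 421 and 505 CPM in DMSO and at 341, 375 and 476 CPM in EZH2i, and the groups overlapped over most of their range. The log2 fold change was -0.09 (interval -0.33 to 0.16, adjusted p = 0.649). Number 4 was the highest library of each group for Cd3d. Cd3e, the epsilon chain, stood at 370.3, 524 and 547 CPM in DMSO and at 259, 459 and 534 CPM in EZH2i, with a log2 fold change of -0.13 (interval -0.49 to 0.22, adjusted p = 0.630). Number 6 was the lowest library for Cd3e in both groups.

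Whether Cd3g differed from Cd3e was tested on their ratio within libraries. It was 1.16 ± 0.0997 in DMSO and 0.992 ± 0.102 in EZH2i, a fall in 6 of 6 same-numbered libraries, with a log2 difference of -0.22 (exact permutation test, two-sided, p = 0.0173, adjusted p = 0.0390). This call was lost with any of 9 of the 12 libraries left out, with adjusted p up to 0.0828. The exact sign-flip test on pairs gave p = 0.0312, the smallest that 6 pairs can give, and an adjusted p of 0.0562. With p at its floor, that test did not decide the call. The ratio of Cd3d to Cd3e was 0.884 ± 0.221 in DMSO and 0.937 ± 0.256 in EZH2i (log2 difference 0.071, exact permutation test, p = 0.721, adjusted p = 0.721). It spread widely inside each group, up to 1.33 in DMSO library 4 and 1.32 in EZH2i library 6. Cd3d, Cd3e and Cd3g lie together on chromosome 9 between 44969572 and 45009627.

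Cd247 encodes the zeta chain, the homodimer that carries most of the signalling tyrosine motifs of the receptor. It stood at 297, 417 and 434 CPM in DMSO and at 218, 347 and 381 CPM in EZH2i. The log2 fold change of -0.22 (interval -0.52 to 0.081) missed the threshold (adjusted p = 0.306), and passed with the replicate block (-0.23, adjusted p = 0.00642) but not without both libraries numbered 6 (adjusted p = 0.0596). The ratio of Cd247 to Cd3e was tight, at 0.806 ± 0.0278 in DMSO and 0.764 ± 0.0527 in EZH2i (log2 difference -0.08, exact permutation test, p = 0.108, adjusted p = 0.195), and passed without EZH2i library 6 (-0.11, adjusted p = 0.0273, exact permutation test). In GENCODE M21, 56.4% of the exon bases of Cd247 overlap exons of Pou2f1, a gene on the opposite strand, so this count is uncertain where strand was not used. Pou2f1 itself averaged 41.7 ± 6.53 CPM with DMSO and 45.4 ± 3.19 CPM with EZH2i (adjusted p = 0.437). Cd247 lies on chromosome 1 from 165788681 to 165877277.

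**Figure D2:**
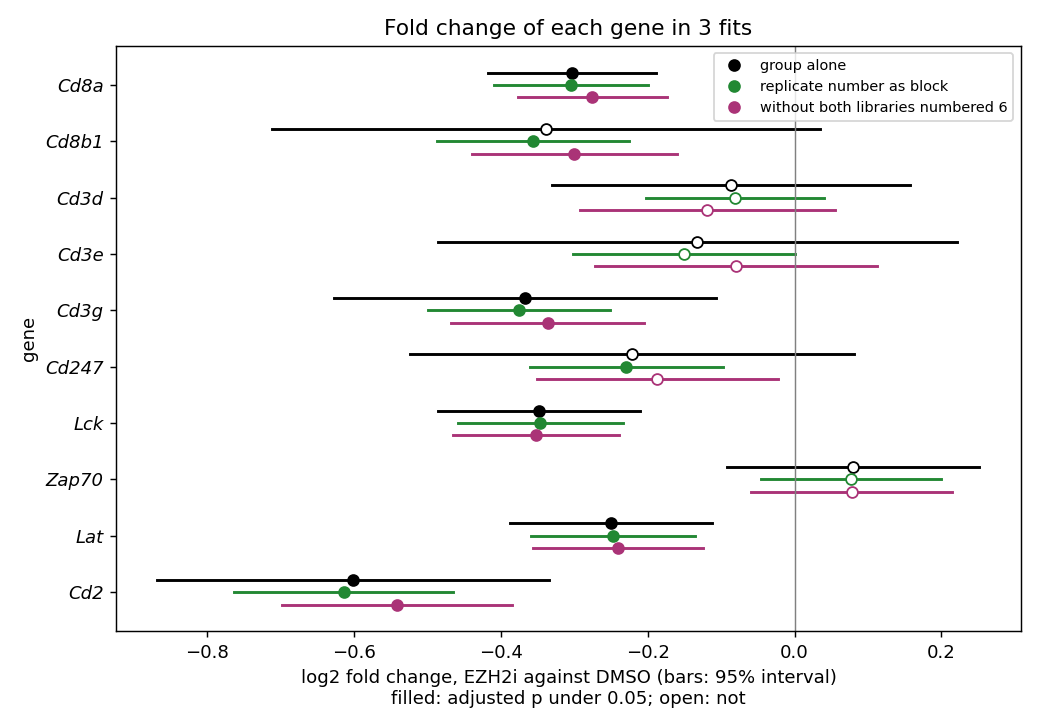
Log2 fold change of each gene, EZH2i against DMSO, with 95% intervals, in the fit with the group alone, with the replicate number as a block and without both libraries numbered 6; filled points passed an adjusted p of 0.05. Cd8a, Cd3g, Lck, Lat and Cd2 are filled in each fit, Cd3d, Cd3e and Zap70 are open in each, and Cd8b1 and Cd247 change with the fit.

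The proximal kinases differed from each other. Lck, the kinase held by CD8 and CD4 that starts signalling, stood at 745, 863 and 904 CPM in DMSO and at 605, 659.7 and 697 CPM in EZH2i. The groups did not overlap. It fell by 0.35 on the log2 scale (interval -0.49 to -0.21, adjusted p = 0.00186). Lck lies on chromosome 4 from 129548344 to 129573641 on the minus strand.

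Zap70, the kinase that docks on phosphorylated CD3 and zeta tails, was the only one of the 10 with a fold change above 0. It stood at 172, 202 and 213 CPM in DMSO and at 187, 208 and 241 CPM in EZH2i, with groups that overlapped. The log2 fold change was 0.080 (interval -0.09 to 0.25, adjusted p = 0.543). The difference between the kinases was tested on their ratio. There were 0.238 ± 0.0187 counts of Zap70 for each count of Lck in DMSO and 0.319 ± 0.0208 in EZH2i, with groups that did not overlap and a rise in 6 of 6 same-numbered libraries (log2 difference 0.42, exact permutation test, two-sided, p = 0.00216, the smallest its 924 splits can give, adjusted p = 0.00649). With the libraries taken as pairs, an exact sign-flip test gave p = 0.0312, the smallest that 6 pairs can give, and an adjusted p of 0.0562. With p already at its floor, that test did not decide the call.

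Fyn, the other Src family kinase of T cells that can phosphorylate the receptor, averaged 308 ± 10.7 CPM with DMSO and 309 ± 15.2 CPM with EZH2i (log2 fold change 0.0024, interval -0.11 to 0.12, adjusted p = 0.982). Its ratio to Lck was 0.369 ± 0.0247 in DMSO and 0.469 ± 0.0318 in EZH2i (log2 difference 0.35, exact permutation test, p = 0.00216, adjusted p = 0.00649; adjusted p = 0.0562 in the exact sign-flip test on pairs). All 6 EZH2i libraries had more Fyn per Lck than any DMSO library.

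Lat, the membrane scaffold on which Zap70 assembles the downstream complex, stood at 327, 384 and 412 CPM in DMSO and at 291, 315 and 341 CPM in EZH2i. It fell by 0.25 on the log2 scale (interval -0.39 to -0.11, adjusted p = 0.0146), and the groups overlapped through DMSO library 4 and EZH2i library 6. Number 6 was the highest library of each group for Lat, while it was the lowest for 7 of the 10 genes in DMSO and for 9 in EZH2i. The ratio of Lat to Lck was 0.450 ± 0.0510 in DMSO and 0.481 ± 0.0416 in EZH2i (log2 difference 0.098, exact permutation test, p = 0.273, adjusted p = 0.409). EZH2i had the higher ratio in 6 of 6 pairs. The ratio passed without DMSO library 6 (0.16, adjusted p = 0.0146, exact permutation test) and without both libraries numbered 6 (0.11, adjusted p = 0.0179, exact permutation test). Lat lies on chromosome 7 from 126363824 to 126369570 and Zap70 on chromosome 1 from 36761798 to 36782818.

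Cd2, the adhesion receptor, had the largest log2 fold change of the 10. It stood at 382, 485 and 501 CPM in DMSO and at 204, 317 and 351 CPM in EZH2i. The groups did not overlap, and the log2 fold change was -0.60 (interval -0.87 to -0.33, SE 0.12, adjusted p = 0.00395). EZH2i library 6 was the lowest, at 204 CPM against 284 to 351 CPM in the other 5, and without both libraries numbered 6 the log2 fold change was -0.54. Relative to Cd3e within libraries, Cd2 went from 0.962 ± 0.0739 to 0.698 ± 0.0529 counts, with no overlap between groups (log2 difference -0.46, exact permutation test, p = 0.00216, adjusted p = 0.00649; adjusted p = 0.0562 in the exact sign-flip test on pairs). The ratio of Cd8a to Cd3e went from 2.33 ± 0.388 to 2.11 ± 0.504 (log2 difference -0.15, exact permutation test, p = 0.320, adjusted p = 0.412), so a fall of Cd8a relative to Cd3e was not shown. Cd2 lies on chromosome 3 from 101275899 to 101287939.

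**Figure D3:**
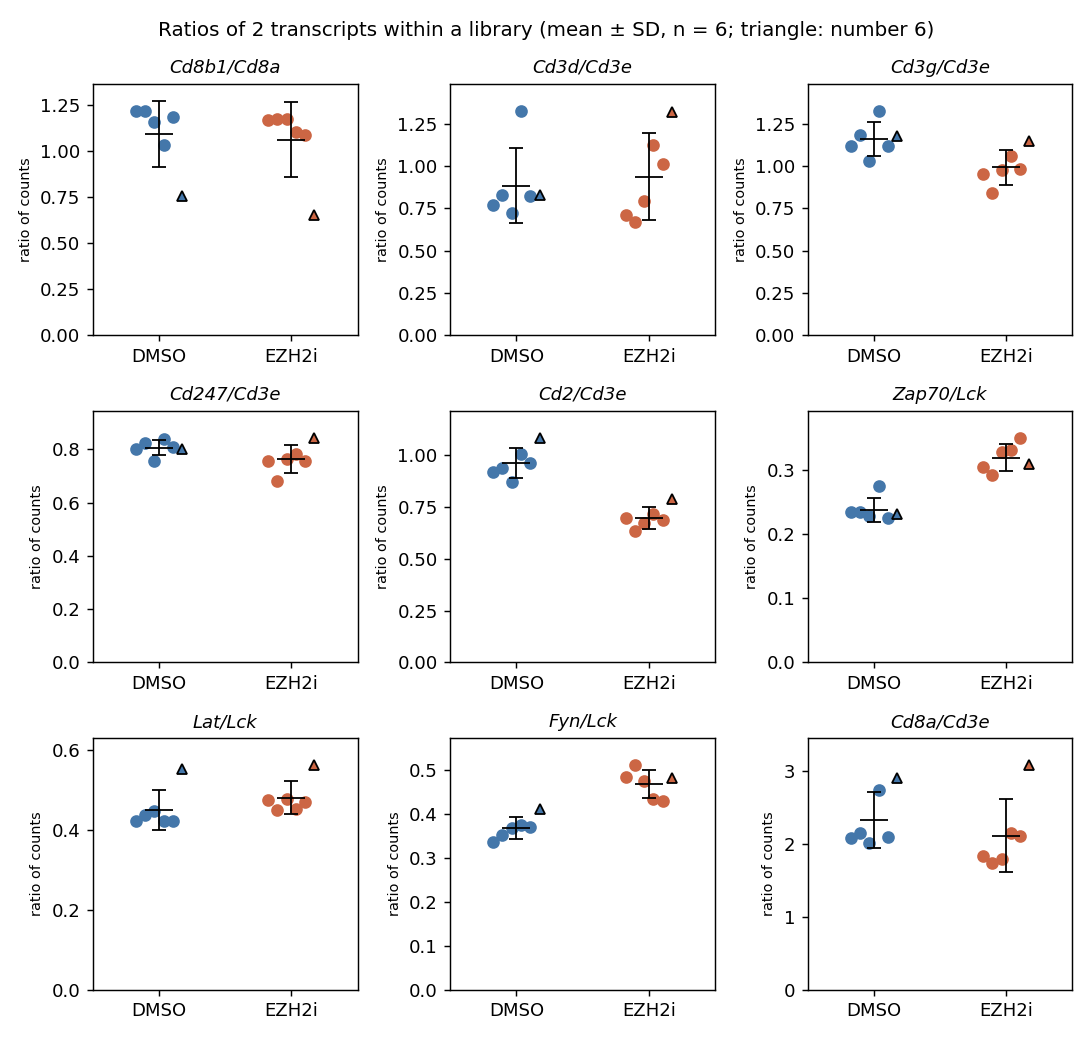
Ratio of the counts of 2 genes within each library, DMSO and EZH2i, for 9 pairs, with the group mean and SD (n = 6 each) on axes that start at 0; triangles are the libraries numbered 6. The groups separate for Cd2/Cd3e, Zap70/Lck and Fyn/Lck, and number 6 stands low for Cd8b1/Cd8a in both groups.

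Transcript levels were compared between genes as CPM per kilobase of annotated exon. In DMSO, Cd8b1 was the highest at 806 ± 145, followed by Cd8a at 300.01 ± 8.54, Lck at 287 ± 21.9, Cd2 at 263 ± 30.04, Cd3d at 228 ± 35.4, Cd3g at 169 ± 21.1, Lat at 136 ± 10.4, Cd3e at 118 ± 20.1, Cd247 at 72.5 ± 11.4 and Zap70 at 66.6 ± 5.14 CPM per kilobase (n = 6 each). Neighbours in this order overlapped in their library ranges, apart from Cd8b1 with Cd8a and Cd3e with Cd247. In EZH2i, Cd2 came after Cd3d and Cd247 after Zap70, and the other genes kept their places. The middle of the order depends on the length used. With the longest coding transcript in place of all exons, Cd3g ranked 2 and Cd3d 8 in both groups, while Cd8b1 stayed the highest and Cd247 and Zap70 the lowest. The 10 genes together took 0.491% to 0.627% of a DMSO library's counts and 0.390% to 0.530% of an EZH2i library's. Number 6 had the lowest share in each group.

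Genes whose log2 CPM followed Cd8a, Lck and Cd2 most closely over the 12 libraries were looked up as a description; the 12 points share the group difference and the offset of number 6. For Cd8a they were Cnn2 (Pearson r 0.974), Ctsc (0.973) and Panx1 (0.969), for Lck Anapc5 (0.983), Emc3 (0.967) and Haus4 (0.958), and for Cd2 Arhgdib (0.992), Msn (0.986) and Tuba1a (0.985). All 9 of these genes were called lower, which their choice by likeness to genes called lower makes likely. Arhgdib went from 1391 ± 154 to 1004 ± 140 CPM (adjusted p = 0.00668).

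Around the receptor, the rest of the signalling pathway was mixed in direction. Of 76 tested genes in a list of receptor partners, kinases, adaptors, downstream effectors and inhibitors, 9 were called higher and 10 lower, which is 11.8% and 13.2% of them beside 13.3% and 6.05% of all tested genes. The list's median log2 fold change was -0.09. With the replicate block 16 were called higher and 26 lower, where 24.7% and 24.3% of all tested genes were called. Without both libraries numbered 6 it was 17 higher and 20 lower, where 23.9% and 20.9% of all tested genes were called. The counts by role below are set against these same shares of all tested genes.

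Among the receptor partners, 1 of 7 tested genes rose and 1 fell with the group alone (13.3% and 6.05% of all tested genes), and 1 rose and 3 fell both with the block and without number 6, with Cd5 and Cd27 added. The costimulatory adhesion receptor Cd226 fell from 94.6 ± 11.8 to 67.0 ± 6.58 CPM (adjusted p = 0.00209). Trat1, an adaptor that associates with the receptor complex, rose from 4.46 ± 0.633 to 6.94 ± 1.09 CPM (adjusted p = 0.00479). Ptprc, which encodes CD45, the phosphatase that keeps Lck ready for activation, stood at 2187 ± 260 and 2186 ± 242 CPM (log2 fold change -0.0010, interval -0.21 to 0.21, adjusted p = 0.996).

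Among 10 kinases 1 rose and 0 fell with the group alone, and 2 rose and 3 fell both with the block and without number 6, with Txk added above and Csk, Map4k1 and Tec below. Syk, the relative of Zap70 used by B cells and innate cells, rose from 0.702 ± 0.254 to 3.10 ± 0.880 CPM, a log2 fold change of 2.14 (interval 1.54 to 2.74, adjusted p = 0.000145), with no overlap between groups. At its EZH2i level it remained far below Zap70, which averaged 211 CPM there. Syk is also a marker of B and myeloid cells, and those lists summed to 15.4 to 23.7 and 11.8 to 22 CPM in EZH2i against 19.9 to 25.8 and 7.20 to 13.6 CPM in DMSO; their part in the Syk level was not tested.

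Among 19 adaptors 2 rose and 3 fell with the group alone, 3 rose and 6 fell with the block, and 3 rose and 4 fell without number 6. Sit1, an inhibitory transmembrane adaptor, fell from 40.9 ± 4.77 to 26.6 ± 5.18 CPM (adjusted p = 0.00579). Themis, an adaptor of receptor signalling in thymocytes and T cells, fell from 351 ± 36.6 to 279 ± 18.02 CPM (adjusted p = 0.00726). Lcp2, which encodes SLP-76, the partner of Lat in the signalling complex, fell from 421 ± 25.0 to 351 ± 22.2 CPM (adjusted p = 0.00908).

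Of 22 downstream effectors 2 rose and 3 fell with the group alone, 4 rose and 8 fell with the block, and 4 rose and 5 fell without number 6. Itpr1, a calcium channel of the endoplasmic reticulum, rose from 62.4 ± 6.82 to 89.9 ± 5.44 CPM (adjusted p = 0.000356). Ppp3ca, a catalytic subunit of calcineurin, rose from 91.5 ± 6.81 to 118 ± 15.8 CPM (adjusted p = 0.0131). The small GTPase Cdc42 fell from 716 ± 37.5 to 596 ± 42.1 CPM (adjusted p = 0.00804).

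Of 18 inhibitors of signalling 3 rose and 3 fell with the group alone, 6 rose and 6 fell with the block, and 7 rose and 5 fell without number 6. The related genes Ubash3a and Ubash3b, whose products Sts-2 and Sts-1 act on Zap70 signalling, went in opposite directions: Ubash3a fell from 136 ± 9.18 to 103 ± 5.92 CPM (adjusted p = 0.000620) and Ubash3b rose from 77.9 ± 3.98 to 103 ± 4.52 CPM (adjusted p = 0.000204). Inpp5d, which encodes the lipid phosphatase SHIP-1, rose from 105 ± 6.13 to 133 ± 4.14 CPM (adjusted p = 0.000706). Ptpn6, which encodes the phosphatase SHP-1 that acts on Lck and Zap70 and was picked out after its values were seen, went from 372 ± 63.4 CPM down to 232 ± 24.3 CPM (adjusted p = 0.000943), a log2 fold change of -0.68.

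**Figure D4:**
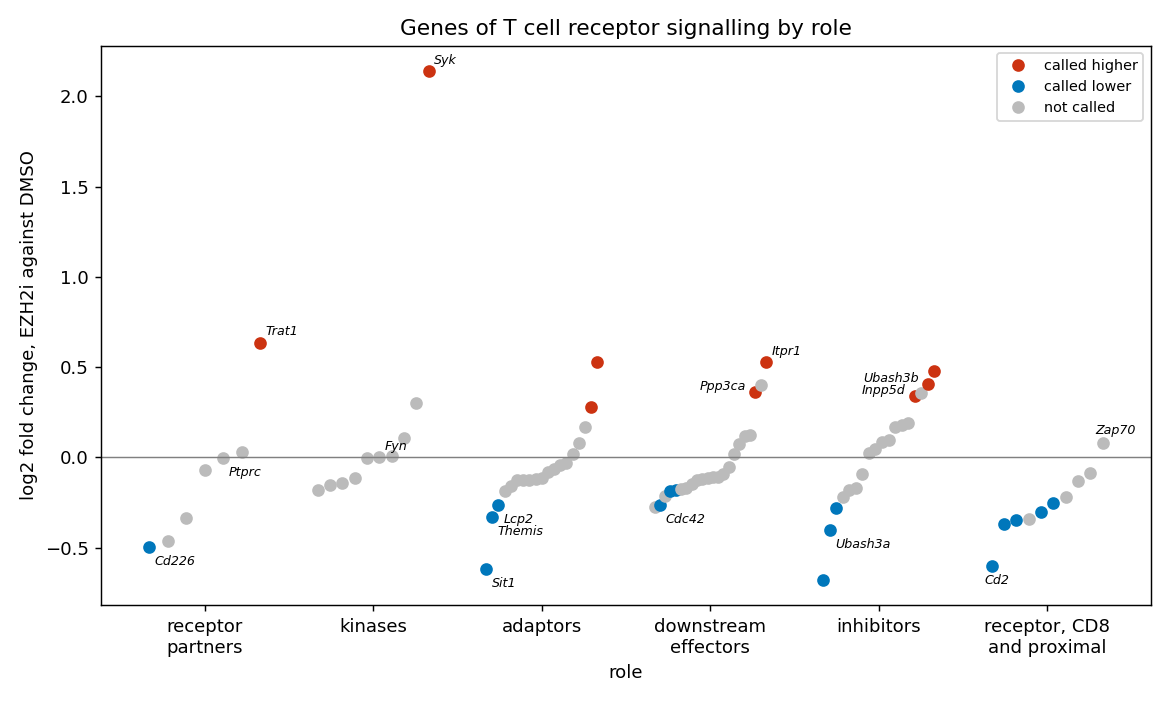
Log2 fold change, EZH2i against DMSO, of 76 tested genes of T cell receptor signalling by role, and of the 10 receptor, CD8 and proximal genes at the right, coloured by call. Calls go in both directions among the 76, Syk stands highest at 2.14, and the 5 calls among the 10 are all lower.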

How the data were processed

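Polyadenylated RNA of 12 libraries (6 DMSO, 6 EZH2i) was made into stranded libraries and sequenced as single-end reads, per the labels' protocols. The authors deposited raw read counts per gene symbol, 1 file per library. Per the submitters' processing notes, the build was GRCm38 (mm10) and the tools were TopHat2 2.1.1, featureCounts, SAMtools 1.9, Trimmomatic 0.38 and FastQC 0.11.7. The sources used here do not state the annotation, strand setting or treatment of multiply mapped reads, so overlapping and antisense genes are uncertain.

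Counts were analysed with edgeR 4.0.16 in R 4.3.3: filterByExpr, TMM scaling and the two-sided quasi-likelihood test with the group alone, with Benjamini-Hochberg adjustment over 11727 genes. The 95% intervals use the SE, which is the log2 fold change divided by the square root of F. CPM were computed on library sizes adjusted with TMM. Ratios of 2 counts within a library were tested by an exact two-sided permutation test over 924 splits. Positions and exon lengths come from GENCODE M21 (GRCm38), and promoters from RefSeq. The test was checked on simulated counts. Replicates of a group differed by at least 4.94 in chi-square per degree of freedom, so none was counted as a duplicate.

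Both groups carry the numbers 1 to 6, whose meaning the labels do not give. Deviations from the group means correlated between same-numbered libraries with r of 0.213, 0.445, 0.286, 0.527, 0.317 and 0.847 across genes. All were over the limit of 0.1, but without number 6 the lowest was 0.0371. The main fit and the permutation tests used the group alone and no pairs. Taking the numbers as pairs was a choice made from the data. Among the tests, only the replicate block and the sign-flip test used it, as alternatives. The 10 genes and the gene lists were chosen with earlier results of these data known. Named genes were all 10, up to 3 called genes of each signalling role by adjusted p, Cd4, Fyn and Ptprc, and the 3 genes with the highest r to Cd8a, Lck and Cd2 (leaving out unnamed gene models); others are marked. DESeq2 1.42.0, other scalings, no filter, the replicate block and left-out libraries were the alternatives.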

Additional observations from a re-analysis of the deposited data

Results flagged for a closer look

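Cd8b1 in EZH2i library 6 stood far from the other 5 libraries of its group, at 522 CPM against 949 to 1084 CPM. DMSO library 6 was also the lowest of its group for Cd8b1, at 813 CPM, by a gap that was not as large relative to the spread. Each of the 10 genes was looked at in both groups, and chance alone marks about 1 in 20 such groups.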

How the results depend on the processing

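Cd8a, Lck, Lat and Cd2 stayed lower and past the threshold in all 18 alternatives (other scalings, DESeq2, no filter, the replicate block, both libraries numbered 6 left out, and each library left out), with adjusted p up to 0.00804, 0.0101, 0.0495 and 0.0118; Cd3g kept its direction and lost its call in 9 of 18, and Zap70 stayed above 0 at 0.036 to 0.14. The count of the 10 genes called was 4 to 7. Genes called numbered 2266 (1557 higher and 709 lower), and 68.7% of calls were higher. Upper-quartile scaling called 347 lower, and 83.8% of its calls were higher. DESeq2 called 2131 higher and 1118 lower. With the replicate block 5741 genes were called (2892 higher, 2849 lower, 50.4% of calls higher), and without both libraries numbered 6 5270 (2815 higher, 2455 lower, 53.4% higher). With 1 library left out the calls ranged from 1732 to 4079, higher ones from 1297 to 2262 and lower ones from 435 to 1817, the most without EZH2i library 6. Of the signalling list, 42 genes were called with the block (16 higher, 26 lower) and 37 without both libraries numbered 6 (17 higher, 20 lower). DESeq2 called 26 of them (10 higher, 16 lower), beside 15.3% higher and 8.01% lower of all genes it tested. Leaving 1 library out gave 15 to 28 calls (8 to 14 higher, 7 to 14 lower). The causes were not tested.

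For the paired analysis of the ratios (replicate block), a sign-flip test over 6 same-numbered differences cannot give p below 0.0312. Cd3g/Cd3e (-0.22), Cd2/Cd3e (-0.46), Zap70/Lck (0.42), Fyn/Lck (0.35) and Lat/Lck (0.098) stood at that floor, with an adjusted p of 0.0562 (exact test). With p at its floor, that test did not decide on these ratios. Without both libraries numbered 6, Cd3d/Cd3e reversed to -0.048, and Cd247/Cd3e (-0.11) and Lat/Lck (0.11) passed. With 1 library left out, the log2 differences ranged from -0.16 to 0.081 for Cd8b1/Cd8a and from -0.036 to 0.19 for Cd3d/Cd3e, both with a change of sign without EZH2i library 6; from -0.27 to -0.18 for Cd3g/Cd3e; from -0.11 to -0.045 for Cd247/Cd3e; and from 0.052 to 0.16 for Lat/Lck. The pairing changed no other call on the 10 genes than those of Cd8b1 and Cd247. The lowest count of any of the 10 genes in a library was 2895.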
